A study of Mus musculus with 25 samples.

Results

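The 4 libraries described here, of 25 in the series, came from mouse astrocyte cultures that had received a control lentivirus. They are the controls of 2 knockdown experiments, 1 directed at the long non-coding RNA Zeb2os and 1 at the transcription factor gene Zeb2, and were chosen by joining the gene tables of both experiments by gene identifier. The Zeb2os set and the Zeb2 set each had 2 controls. All were labelled C57BL/6 and wild type (WT), from brains of postnatal days 4 to 7, and all were selected with puromycin at 1 µg/ml, an antibiotic that kills cells lacking the resistance gene of the virus. In the Zeb2os set selection began 24 hours after transduction and lasted 5 days by one label and 3 days by another. In the Zeb2 set it began after 48 hours and lasted 3 days. The labels of the Zeb2os set add that the cultures were shaken overnight at 220 rpm after 7 days, to take off microglia, fibroblasts and oligodendrocytes, and were seeded at 70% to 80% confluency; no such protocol was given for the Zeb2 set. The knockdown cultures, 2 labelled Zeb2os -/- and 2 labelled Zeb2 -/- although made with knockdown viruses, shared these protocols with their own controls and serve here as a second view of each set. No source used here says whether both sets received the same control virus, whether libraries of a group were separate cultures, or on which days the sets were grown. The p-values therefore measure only the spread between these libraries, which may be technical, and set, protocol and any batch cannot be told apart. The sets also differed in the level of Y-linked genes, as described below, and this cannot be told apart from set, protocol or batch either.

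Primary astrocyte cultures are grown from the dissociated brains of newborn mice, and astrocytes divide in them until they are confluent. Some microglia, fibroblasts and precursor cells usually remain. Type I interferons bind the receptor made of Ifnar1 and Ifnar2, whose kinases Jak1 and Tyk2 activate transcription factors, Stat2 among them. With Irf9 these bind the interferon-stimulated response element in the promoters of interferon-stimulated genes, a family that blocks steps of viral growth and that astrocytes can express strongly. Many of these genes are silent or low in unstimulated cells, so their joint level is commonly read as the interferon state of a culture.

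Total counts were 78.8 and 158 M in the Zeb2os-set controls and 65.4 and 50.2 M in the Zeb2-set controls, with 45.6 and 50.9 M in the Zeb2os knockdowns and 42.8 and 29.0 M in the Zeb2 knockdowns. Levels are CPM, the counts of a gene relative to library size, scaled by trimmed mean of M values. Differences are log2 values, Zeb2os-set controls minus Zeb2-set controls, with their standard error (SE) from edgeR's quasi-likelihood test. Calls are genes whose p, adjusted by Benjamini-Hochberg over the 20685 genes tested, was below 0.05. The knockdown of Zeb2 was visible in its own set, with 24.3 and 16.9 CPM in the Zeb2 knockdowns against 155 and 141 CPM in the Zeb2-set controls. Counts assigned to Zeb2os were 2.97 and 4.01 CPM in the Zeb2os knockdowns against 5.48 and 3.77 CPM in the Zeb2os-set controls, so that these groups overlapped.

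Among all genes tested, 656 were higher and 334 lower in the Zeb2os-set controls than in the Zeb2-set controls, or 3.17% and 1.61% (4.79% together). The median log2 difference over all genes was 0.10. Protein-coding genes gave 421 of the higher and 284 of the lower calls (2.74% and 1.85% of those tested), and long non-coding genes 235 and 50 (4.44% and 0.944%). The counts were lower in each of the 5 fits without 1 library, which left out a control or Zeb2os knockdown 1. No fit of this comparison left out a Zeb2 knockdown alone. Such fits have fewer libraries from which to estimate the spread, but the 4 controls alone gave more calls, 1112 higher and 967 lower. The reason for these shifts was not tested. Without Zeb2os-set control 1, 68 genes were higher and 9 lower; without Zeb2-set control 1 there were 66 and 23, without Zeb2-set control 2 there were 48 and 19, and without Zeb2os knockdown 1, a library with 24267 CPM of the leucyl-tRNA synthetase gene Lars2, there were 195 and 95. Short genes were also shifted up against long ones: over protein-coding genes in 5 equal groups by exonic length, the median log2 difference was 0.40, 0.10, 0.00, -0.11 and -0.30, shortest to longest. With offsets for length and GC content 543 genes were higher and 859 lower, and higher calls made up 38.7% of calls, against 66.3% without the offsets.

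Interferon-stimulated genes had the largest median difference, in either direction, of the lists examined with over 5 genes tested. Of 45 genes on the list, 43 were found and tested. In the Zeb2os-set controls 35 of these (81.4%) were higher, beside 3.17% of all genes tested, and none was lower. The median log2 difference was 2.93, beside 0.10 for all genes. Summed over the list, levels were 4423 and 3864 CPM in the Zeb2os-set controls, against 886 and 725 CPM in the Zeb2-set controls. In 42 of the 43, both Zeb2os-set controls lay above both Zeb2-set controls, which was so for 34.8% of all genes tested.

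The promoters of some of these genes carry letters of the response element, and 5 are shown as examples of genes called higher. In 3 the window matched the letter pattern given next, and in 2 it did not. A window without a match does not show that the gene lacks the element, which may be spaced otherwise or lie outside the window. Each line gives the 250 bases before the start of transcription from RefSeq (GRCm38.p6), on the strand of the gene, with matches to GAAANNGAAA or its complement TTTCNNTTTC in capitals; overlapping matches were merged.
Isg15, chr4:156200819-156201068, minus strand: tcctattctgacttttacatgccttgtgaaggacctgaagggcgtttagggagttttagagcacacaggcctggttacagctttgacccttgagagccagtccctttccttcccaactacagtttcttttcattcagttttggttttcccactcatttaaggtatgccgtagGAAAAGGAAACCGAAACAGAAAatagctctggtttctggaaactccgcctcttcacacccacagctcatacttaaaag
Ifit1, chr19:34640639-34640888, plus strand: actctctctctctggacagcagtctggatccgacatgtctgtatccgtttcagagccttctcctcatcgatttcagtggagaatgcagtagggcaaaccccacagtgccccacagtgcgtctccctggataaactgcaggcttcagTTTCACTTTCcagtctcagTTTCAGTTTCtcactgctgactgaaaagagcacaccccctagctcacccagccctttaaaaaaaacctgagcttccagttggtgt
Oas1a, chr5:120907526-120907775, minus strand: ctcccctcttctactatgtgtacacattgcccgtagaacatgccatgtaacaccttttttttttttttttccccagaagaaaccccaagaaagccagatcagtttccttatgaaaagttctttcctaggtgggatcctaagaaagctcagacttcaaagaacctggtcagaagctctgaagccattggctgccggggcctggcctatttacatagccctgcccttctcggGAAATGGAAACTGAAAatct
Ifi44, chr3:151749911-151750160, minus strand: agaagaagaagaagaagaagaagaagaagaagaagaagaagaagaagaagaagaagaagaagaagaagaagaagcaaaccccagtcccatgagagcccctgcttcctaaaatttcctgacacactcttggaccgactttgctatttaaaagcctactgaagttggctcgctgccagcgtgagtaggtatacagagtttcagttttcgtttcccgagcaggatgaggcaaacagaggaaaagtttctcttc
Irf7, chr7:141266425-141266674, minus strand: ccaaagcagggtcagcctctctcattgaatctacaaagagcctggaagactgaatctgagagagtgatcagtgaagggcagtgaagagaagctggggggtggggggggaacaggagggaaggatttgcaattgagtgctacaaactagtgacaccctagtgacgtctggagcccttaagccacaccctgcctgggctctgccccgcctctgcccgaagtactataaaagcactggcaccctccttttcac

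The Isg15 promoter held 3 overlapping matches, the first starting 78 bases before the start of transcription. Ifit1 held 2 separate matches on the opposite strand and Oas1a 2 overlapping ones, while the letters did not occur in the windows of Ifi44 and Irf7. Of the 33 list members with a RefSeq promoter entry, 16 (48.5%) held the motif, against 936 (3.46%) of all 27025 genes with an entry. Among members called higher it was 14 of 27 and among those not called 2 of 6. A match describes the letters of these windows and was not measured as binding.

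Isg15, a ubiquitin-like protein joined to other proteins during antiviral defence (chromosome 4, 156199424 to 156200818 in GRCm38), had 309 and 185 CPM in the Zeb2os-set controls, against 5.15 and 6.53 CPM in the Zeb2-set controls. Its log2 difference was 5.40 ± 0.36 (SE, edgeR adjusted p = 0.00073). Usp18, the protease that removes Isg15 from its targets and damps receptor signalling, had 108 and 89.5 CPM in the Zeb2os-set controls, against 7.58 and 7.65 CPM in the Zeb2-set controls. The groups were far apart for both genes, and both calls held in all 5 fits that left out 1 library (highest edgeR adjusted p = 0.015 for Isg15 and 0.018 for Usp18).

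Ifit1, which binds viral RNA ends, had 249 and 163 CPM in the Zeb2os-set controls, against 7.27 and 12.3 CPM in the Zeb2-set controls. Its relative Ifit3 stood at 306 and 287 CPM in the Zeb2os-set controls, against 44.5 and 21.7 CPM in the Zeb2-set controls. The log2 differences were 4.4 ± 0.61 and 3.16 ± 0.38 (SE, edgeR adjusted p = 0.0091 and 0.005). Reads of Ifit3 and its near copy Ifit3b may have been split by the counting, so the share of each is uncertain. Ifit2, of the same family, was the exception: it had 44.6 and 51.7 CPM in the Zeb2os-set controls, against 34.9 and 34.1 CPM in the Zeb2-set controls, with a log2 difference of 0.48 ± 0.25 (SE, edgeR adjusted p = 0.26).

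The synthetases that make the 2'-5' linked adenylates activating RNase L followed the same order. Oas1a had 32.4 and 23.2 CPM in the Zeb2os-set controls, against 1.57 and 1.25 CPM in the Zeb2-set controls. Oasl2 had 108 and 121 CPM in the Zeb2os-set controls, against 7.62 and 7.11 CPM in the Zeb2-set controls. Oas3 had 2.54 and 1.82 CPM in the Zeb2os-set controls and 2 counts in all in the Zeb2-set controls, a ratio of 108 with a counting interval (exact, 95%) of 29.7 to 892. Some members of this family, such as Oas1a and Oas1g, are near copies, so the split between those is uncertain too.

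Ifi44, a cytoplasmic protein that interferon induces, had 74.0 and 85.9 CPM in the Zeb2os-set controls, against 1.78 and 3.38 CPM in the Zeb2-set controls. Rtp4, a chaperone of receptor proteins that interferon induces, had 87.1 and 71.1 CPM in the Zeb2os-set controls, against 3.58 and 3.51 CPM in the Zeb2-set controls. Rsad2, the antiviral enzyme viperin, had 20.4 and 18.6 CPM in the Zeb2os-set controls, against 1.16 and 1.57 CPM in the Zeb2-set controls. No control of one set came near those of the other in these 3 genes. Bst2, or tetherin, which holds budding virus at the cell surface, and Ifitm3, which blocks viral entry, were already well expressed in the Zeb2-set controls. Bst2 had 451 and 247 CPM in the Zeb2os-set controls, against 38.5 and 44.1 CPM in the Zeb2-set controls, and Ifitm3 had 458 and 319 CPM in the Zeb2os-set controls, against 83.3 and 73.5 CPM in the Zeb2-set controls.

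Of the transcription factors on the list, Irf7, which amplifies interferon production, had 70.8 and 63.7 CPM in the Zeb2os-set controls, against 6.92 and 6.03 CPM in the Zeb2-set controls. Irf9 had 79.5 and 75.2 CPM in the Zeb2os-set controls, against 16 and 16.5 CPM in the Zeb2-set controls. In both genes the sets of controls lay far apart. Of related factors listed with the upstream genes, Irf1, Irf2 and Irf3 were not called (log2 differences 1.58, -0.05 and 0.54). The log2 differences were 3.37 ± 0.36 for Irf7, 2.67 ± 0.33 for Stat2 and 2.25 ± 0.35 for Irf9 (SE, edgeR adjusted p = 0.0041, 0.0058 and 0.015). The cytoplasmic RNA sensors on the list were also higher, with log2 differences of 4.58 ± 0.46 for Dhx58, 1.78 ± 0.32 for Ifih1 and 1.19 ± 0.29 for Ddx58 (SE, edgeR adjusted p = 0.0038, 0.022 and 0.049). Dhx58 was called in all 14 alternatives that tested it, but Ifih1 in 9 of 15 and Ddx58 in 6 of 15.

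Of 23 ligand, receptor and signalling genes upstream of these targets, 16 were tested. None was called in the edgeR fit of all 8 libraries, beside 4.79% of all genes tested, a share at which so short a list can hold no call. At an unadjusted edgeR p under 0.05, 2 were higher and 4 lower. Both Zeb2os-set controls lay above both Zeb2-set controls in 6 and below them in 6, beside 34.8% and 28.8% of all genes tested. DESeq2 called 2 higher and 1 lower, and edgeR on the 4 controls alone called 1 lower. Their median log2 difference was 0.06 and ran from -0.25 to 0.18 over the alternatives. The receptor gene Ifnar2 had 25.6 and 25.3 CPM in the Zeb2os-set controls, against 24.8 and 25.4 CPM in the Zeb2-set controls. Ifnar1 had 43.0 and 58.5 CPM in the Zeb2os-set controls, against 82.5 and 83.4 CPM in the Zeb2-set controls, and was not called (log2 difference -0.71 ± 0.25, edgeR adjusted p = 0.12). The ligand gene Ifnb1 had at most 0.0113 CPM in any of the 4 controls and was not tested.

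**Figure D1:**
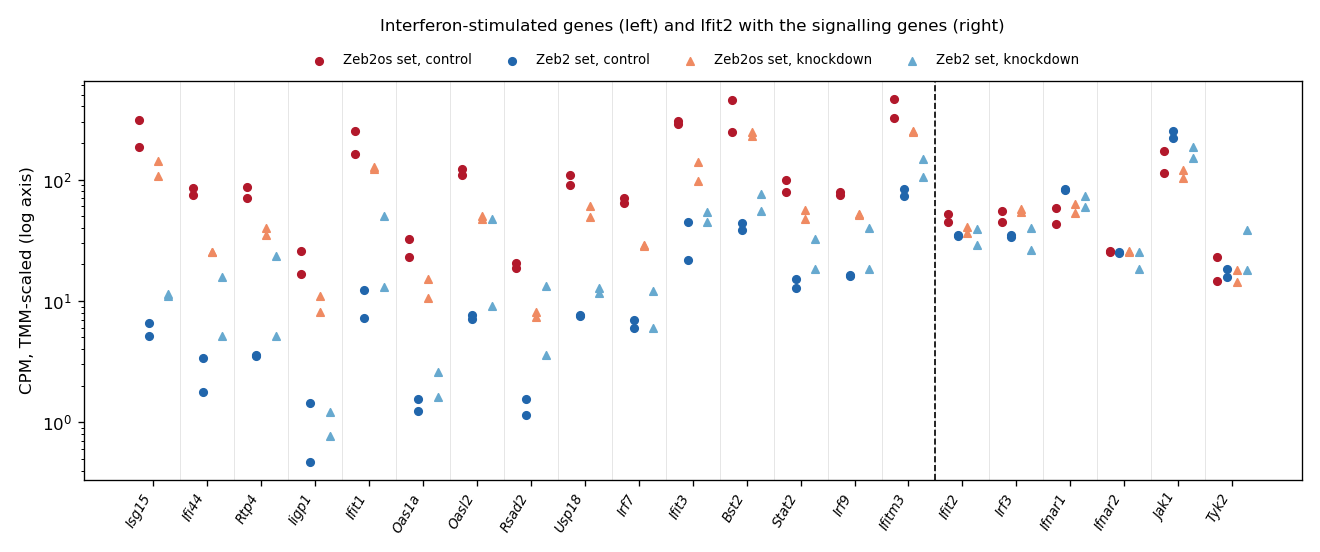
CPM on a log axis for 15 interferon-stimulated genes, left of the dashed line, and for Ifit2 and 5 signalling genes right of it, with 1 point per library in 4 groups. Both Zeb2os-set controls lie above both Zeb2-set controls in all 15 genes on the left, as for Isg15 (309 and 185 CPM against 5.15 and 6.53 CPM), while Ifnar2 stays near 25 CPM in both sets of controls.

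Of the list members that were not called, Gbp2 had 89.1 and 100 CPM in the Zeb2os-set controls, against 29.0 and 10.3 CPM in the Zeb2-set controls, and was just outside the threshold (edgeR adjusted p = 0.058). Cxcl10, a chemokine gene driven by both interferon and NF-kB, was the only member whose controls overlapped between the sets, with 26.1 and 22 CPM in the Zeb2os-set controls, against 29.7 and 3.51 CPM in the Zeb2-set controls. Fewer members passed in each fit without 1 library. The number was 14 without Zeb2os-set control 1, 11 without Zeb2-set control 1, 12 without Zeb2-set control 2 and 27 without Zeb2os-set control 2, and 10 members were called in every one of the 5 fits without 1 library. The median log2 difference stayed between 2.70 and 3.34 in all alternatives tried, those of scaling, length and GC included.

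Genes of antigen presentation by MHC class I, which interferons also raise, had a smaller share of calls than the interferon list. In 12 of 19, both Zeb2os-set controls lay above both Zeb2-set controls, beside 34.8% of all genes tested. The median log2 difference was 0.46. None of the 19 was lower and 4 (21.1%) were higher, beside 3.17% of all genes tested. They were the immunoproteasome subunits Psmb8, Psmb9 and Psmb10 and the non-classical class I gene H2-T23. Psmb8 had 56.6 and 30.8 CPM in the Zeb2os-set controls, against 14.6 and 7.02 CPM in the Zeb2-set controls. The light chain gene B2m had 701 and 509 CPM in the Zeb2os-set controls, against 470 and 308 CPM in the Zeb2-set controls, and the classical gene H2-K1 had 250 and 200 CPM against 238 and 180 CPM; neither was called (edgeR adjusted p = 0.26 and 0.83). None of 7 MHC class II genes was called, by edgeR or by DESeq2, and none had an unadjusted edgeR p under 0.05. Among all genes tested edgeR called 4.79%. Leaving out 1 library, the number of class I calls ran from 0 to 5, and it was 0 without Zeb2os knockdown 1.

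Genes of cell division were higher in level in the Zeb2os-set controls, though few passed the test. Of 25 mitosis genes 4 were called higher and none lower, with a median log2 difference of 1.64. Of 25 DNA replication genes 4 were called higher and none lower, with a median of 1.17. These calls were 16% of each list, beside 3.17% of all genes tested. All 50 log2 differences were above 0, beside 11287 of the 20685 genes tested. Summed levels were 1365 and 1480 CPM for mitosis genes in the Zeb2os-set controls, against 590 and 430 CPM in the Zeb2-set controls. For replication genes they were 1438 and 1462 CPM in the Zeb2os-set controls, against 742 and 662 CPM in the Zeb2-set controls. The Zeb2 knockdowns also entered the estimate of the spread. They had 176 and 630 CPM for mitosis genes and 413 and 853 CPM for replication genes.

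Ccna2, the cyclin of S phase and early mitosis, had 50.6 and 59.2 CPM in the Zeb2os-set controls, against 18.5 and 10 CPM in the Zeb2-set controls. Aurkb, a kinase that corrects chromosome attachment, had 34.5 and 32.0 CPM in the Zeb2os-set controls, against 7.75 and 4.78 CPM in the Zeb2-set controls. Their log2 differences were 1.95 ± 0.39 and 2.41 ± 0.49 (SE, edgeR adjusted p = 0.03 and 0.031), and the spindle genes Kif11 and Nusap1 were the other 2 calls. Mki67, the marker of cycling cells, had 92.1 and 115 CPM in the Zeb2os-set controls, against 46.3 and 20 CPM in the Zeb2-set controls, and missed the threshold (log2 difference 1.64 ± 0.42, edgeR adjusted p = 0.057).

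Among replication genes the calls were Mcm3, a subunit of the replicative helicase, Cdc45 and Gins1, which complete that helicase, and Cdc6, which loads it. Cdc6 had 16.1 and 18.2 CPM in the Zeb2os-set controls, against 5.36 and 2.67 CPM in the Zeb2-set controls. Pcna, the sliding clamp, had 166 and 142 CPM in the Zeb2os-set controls, against 69.9 and 73.2 CPM in the Zeb2-set controls, and was not called (edgeR adjusted p = 0.086). For both lists the count of calls turned on the fit: it was 0 for mitosis and 0 or 1 for replication in the 5 fits without 1 library, while DESeq2 called 15 and 17 higher and a fit of the 4 controls alone 20 and 17. None of these fits called a member of either list lower.

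Regulators of growth gave no such common direction, with 4% called higher, near the 3.17% of all genes tested (1.61% were lower). Of 25, Ccne2, a cyclin of the entry into S phase, was higher (log2 difference 1.57 ± 0.33) and Egfr, a receptor for growth factors, was lower (-1.22 ± 0.26; edgeR adjusted p = 0.033 and 0.034). Ccnd1, the cyclin that growth factors induce, stood the other way round from the mitosis genes, at 292 and 538 CPM in the Zeb2os-set controls, against 1021 and 1194 CPM in the Zeb2-set controls, without passing the test (edgeR adjusted p = 0.14). Among p53 targets Pmaip1, a promoter of cell death, was lower (log2 difference -1.64 ± 0.26) and was the only call among 19, while Cdkn1a, the inhibitor of cyclin-dependent kinases, had 539 and 518 CPM in the Zeb2os-set controls, against 779 and 963 CPM in the Zeb2-set controls (edgeR adjusted p = 0.16). Replication-dependent histone genes, whose transcripts end without a poly(A) tail, included 2 lower calls among 12, Hist1h3b and Hist1h2ab, at 0.78 and 0.77 CPM and at 0.00 and 0.289 CPM in the Zeb2os-set controls, against 13.1 and 8.60 CPM and 7.17 and 4.01 CPM in the Zeb2-set controls.

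**Figure D2:**
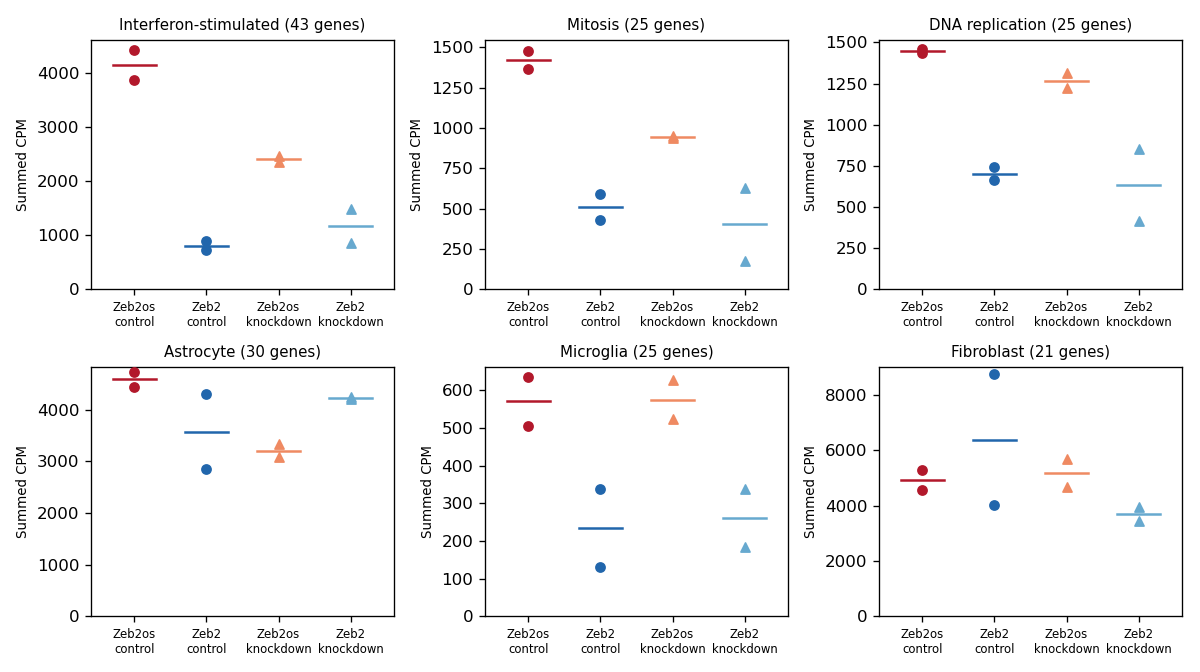
Summed CPM per library (points) and group mean (horizontal lines) for 6 gene lists, on linear axes that start at 0. For interferon-stimulated, mitosis, DNA replication, astrocyte and microglia genes both Zeb2os-set controls lie above both Zeb2-set controls. The sums are 636 and 504 CPM against 339 and 132 CPM for microglia, and 4733 and 4444 CPM against 4295 and 2860 CPM for astrocyte genes. The fibroblast sums of the 2 sets of controls overlap.

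Markers of the labelled cell type were present in all 4 controls, beside markers of other lineages. Gfap, the filament protein of astrocytes, had 490 and 513 CPM in the Zeb2os-set controls, against 442 and 252 CPM in the Zeb2-set controls. The astrocyte transcription factor gene Sox9 had 107 and 91.1 CPM in the Zeb2os-set controls, against 103 and 104 CPM in the Zeb2-set controls. Slc1a3, a glutamate transporter, had 119 and 160 CPM in the Zeb2os-set controls, against 112 and 70.4 CPM in the Zeb2-set controls. None of these 3 was called, nor were Aqp4, Aldh1l1 and Slc1a2 (log2 differences -0.96, 0.16 and -0.05). The median log2 difference of 30 astrocyte genes was 0.26. Only Clu, the secreted chaperone clusterin, and Gjb6, the gap junction protein connexin 30, were called, both higher. They were 6.67% of the list, beside 3.17% of all genes tested. Clu had 420 and 321 CPM in the Zeb2os-set controls, against 170 and 128 CPM in the Zeb2-set controls. Gjb6 had 1.26 and 1.51 CPM in the Zeb2os-set controls and no count in the Zeb2-set controls, so it was at least 49.9-fold higher, taking 3 counts over that group as the floor. In the fits without 1 library 0 to 2 astrocyte genes were called higher. Acta2 and Tagln, contractile genes of smooth muscle and of activated cells in culture, were among the most abundant markers of another lineage, at 6310 and 5383 CPM and at 6275 and 3836 CPM in the Zeb2os-set controls, against 7137 and 4661 CPM and 4491 and 3889 CPM in the Zeb2-set controls. Their list of 15 mural genes summed to 13318 and 9952 CPM in the Zeb2os-set controls, against 12848 and 9384 CPM in the Zeb2-set controls. The 30 astrocyte genes summed to 4733 and 4444 CPM, against 4295 and 2860 CPM. Sums of different genes do not give shares of cells.

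Microglia genes were higher in level in the Zeb2os-set controls, the set whose labels describe shaking to remove these cells. Of 25, 5 (20%) were called higher, beside 3.17% of all genes tested, and none was lower. The median log2 difference of the list was 1.66. In 21 of the 25, both Zeb2os-set controls lay above both Zeb2-set controls, beside 34.8% of all genes tested. C1qc, a chain of the first complement component, had 20.2 and 17 CPM in the Zeb2os-set controls, against 3.46 and 0.646 CPM in the Zeb2-set controls. Tmem119, a surface protein used to mark microglia that mesenchymal cells also express, had 33.8 and 28.2 CPM in the Zeb2os-set controls, against 9.89 and 5.6 CPM in the Zeb2-set controls. C1qa, C1qb and the lysosomal protease gene Ctss were the other calls. The defining markers were low in every control: Aif1 and P2ry12 were below 1 CPM in all 4, and Cx3cr1 had 1.87 and 2.07 CPM in the Zeb2os-set controls, against 0.514 and 0.302 CPM in the Zeb2-set controls. Without 1 library 0 to 2 of the list were called, and the median was 2.57 without Zeb2-set control 1 and 0.84 without Zeb2-set control 2. In bulk libraries fewer cells of a type and less RNA per cell cannot be told apart. The part of microglia in the difference of the interferon genes was not tested.

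Among fibroblast genes, Lum and Dcn, small proteoglycans of collagen matrix, Mgp, the matrix Gla protein, and Foxd1, a transcription factor of stromal cells, were higher, and none of the 19 tested was lower (median log2 difference 0.64). The higher calls were 21.1% of those tested, beside 3.17% of all genes. Lum had 26.2 and 24.0 CPM in the Zeb2os-set controls, against 1.34 and 1.01 CPM in the Zeb2-set controls, with a log2 difference of 4.41 ± 0.41 (SE, edgeR adjusted p = 0.0031). The collagen gene Col1a1 had 1499 and 1890 CPM in the Zeb2os-set controls, against 4951 and 2079 CPM in the Zeb2-set controls, and was not called (edgeR adjusted p = 0.17). The call of Lum held in all 5 fits without 1 library, and the list had 1 to 4 calls there. Its median was 0.13 without Zeb2-set control 2.

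Of the other lineages, neuronal genes had 3 higher calls among 18 tested (16.7%), beside 3.17% of all genes tested. The oligodendrocyte and ependymal lists, the latter with choroid plexus genes, had 1 higher call each among 14 tested (7.14%). Lower calls were 1 of 12 oligodendrocyte precursor genes, 1 of 13 mural genes and 1 of 13 endothelial genes, beside 1.61% of all genes tested. Cspg4, the NG2 proteoglycan of pericytes and oligodendrocyte precursors, was lower, at 39.8 and 60.5 CPM in the Zeb2os-set controls, against 227 and 247 CPM in the Zeb2-set controls. Cdh5, a cadherin of endothelium, was lower as well (log2 difference -1.64 ± 0.38), but the endothelial markers Pecam1 and Cldn5 were below 1 CPM in all 4 controls. Higher calls were Cldn11, a tight junction gene of oligodendrocytes and meninges (12 and 9.14 CPM in the Zeb2os-set controls, against 0.514 and 0.689 CPM in the Zeb2-set controls), Ttr, the carrier protein of the choroid plexus (14.8 and 10.1 CPM against 0.0856 and 0.539 CPM), and the neuronal genes Snap25, Snhg11 and Meg3. Rbfox3, the defining nuclear protein of neurons, was below 1 CPM in all 4. Genes that mark forebrain or hindbrain position had no call among 9 and 19 tested in the edgeR fit of all 8 libraries. In that fit 4.79% of all genes tested were called. At an unadjusted p under 0.05 in that fit, 2 forebrain genes were lower and 8 hindbrain genes higher. DESeq2 called 2 forebrain genes lower and 5 hindbrain genes higher, and edgeR on the 4 controls alone called 2 hindbrain genes higher.

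**Figure D3:**
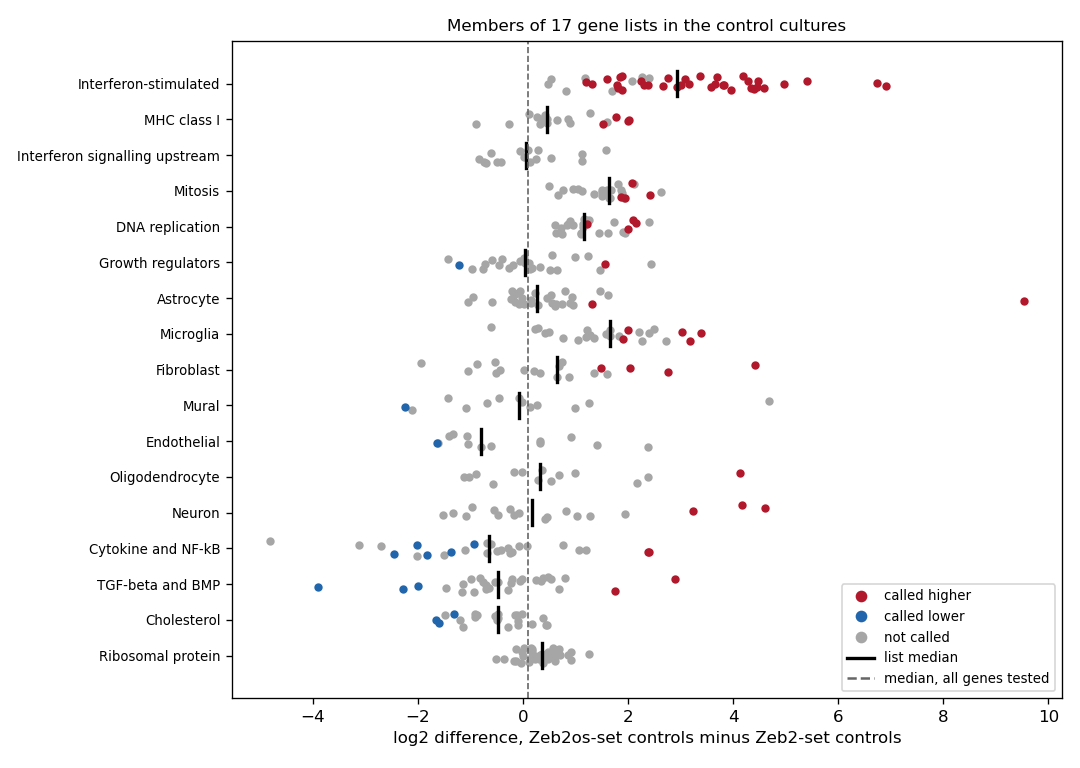
Log2 differences between the sets of controls, 1 point per gene, for 17 gene lists. Black bars give list medians, 2.93 for interferon-stimulated and 1.64 for mitosis genes, and the dashed line the median of all genes at 0.10; calls among cytokine and NF-kB genes lie on both sides.

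Of 26 cytokine and NF-kB genes tested, 5 were lower and 2 higher in the Zeb2os-set controls, beside 1.61% and 3.17% of all genes tested. The median log2 difference was -0.64. Lower were Csf1, the growth factor of macrophages, Lif, a cytokine of the interleukin-6 family, Nfkb2, Tnfaip3, a brake on NF-kB, and Ptgs2, which makes prostaglandins. Csf1 had 297 and 409 CPM in the Zeb2os-set controls, against 1533 and 955 CPM in the Zeb2-set controls. Ptgs2 had 90.9 and 122 CPM in the Zeb2os-set controls, against 494 and 676 CPM in the Zeb2-set controls. Ccl5, a chemokine of antiviral responses, and the alarmin Il33 were higher. Without 1 library at most 2 were called lower. The median was 0.27 without Zeb2-set control 1 and -1.18 without Zeb2-set control 2, so its sign rested on Zeb2-set control 1.

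The 2 Zeb2-set controls stood far from each other in some inflammatory genes, named after their values were seen. Lcn2, an iron-binding protein of reactive astrocytes, had 1.42 and 1.39 CPM in the Zeb2os-set controls, against 90.5 and 0.00 CPM in the Zeb2-set controls. C3, the central complement component, had 12.6 and 19.8 CPM in the Zeb2os-set controls, against 80.6 and 9.91 CPM in the Zeb2-set controls. Ccl2, a chemokine that draws monocytes, had 6.78 and 4.74 CPM in the Zeb2os-set controls, against 44.7 and 1.96 CPM in the Zeb2-set controls. Each was high in Zeb2-set control 1 alone among the controls, and none was called. Of the genes at 5 CPM or more, 9 were at least 8-fold higher in Zeb2-set control 1 than in control 2 and 4 the other way, on CPM plus 1, while no gene differed that far between the Zeb2os-set controls.

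Grem1, a secreted antagonist of BMP signals, had 4.21 and 5.34 CPM in the Zeb2os-set controls, against 82.5 and 60.8 CPM in the Zeb2-set controls (log2 difference -3.91 ± 0.54, edgeR adjusted p = 0.0091). Of 29 TGF-beta and BMP genes, 3 were lower, Grem1 and Bmp2 among them, and 2 higher (Bmp4 and Tgfbi), with a median of -0.48. Among all genes tested 1.61% were lower and 3.17% higher. Of 23 cholesterol genes, 3 were lower and none higher, among them Insig1, which holds back the activation of sterol synthesis. Cd44, a receptor for hyaluronan, was lower (338 and 320 CPM in the Zeb2os-set controls, against 962 and 1371 CPM in the Zeb2-set controls), and so was Cdh2, or N-cadherin. Without 1 library 0 to 2 of the TGF-beta and 0 or 1 of the cholesterol genes were called lower.

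By size, the 15 largest higher calls among protein-coding genes of at least 3 on the average log2 CPM scale held 10 interferon-stimulated genes. The remaining 5 were Lum, Gm10073, Ptgds, Igf2 and Gzme. Igf2, the fetal insulin-like growth factor, had 471 and 682 CPM in the Zeb2os-set controls, against 27.9 and 42.7 CPM in the Zeb2-set controls (log2 difference 4.03 ± 0.40, edgeR adjusted p = 0.0037). Its imprinted neighbour on chromosome 7, the long non-coding RNA H19, named after its values were seen, had 527 and 587 CPM in the Zeb2os-set controls, against 53.4 and 36.6 CPM in the Zeb2-set controls. Both genes kept their calls in all 5 fits without 1 library. Of the other imprinted genes looked at in the same way, Dlk1, Peg3, Plagl1, Mest, Grb10 and Cdkn1c were not called and Mirg was higher (log2 difference 2.03 ± 0.36), as was Meg3 of the same imprinted locus, which the neuronal list holds (4.6 ± 0.49).

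Ptgds, the prostaglandin D2 synthase of meninges, had 45.2 and 30.7 CPM in the Zeb2os-set controls, against 0.873 and 2.05 CPM in the Zeb2-set controls. Gzme, a granzyme gene, had 13.8 and 10.2 CPM in the Zeb2os-set controls, against 1.22 and 0.603 CPM in the Zeb2-set controls. Gm10073 had 20.4 and 9.64 CPM in the Zeb2os-set controls and a single count over both Zeb2-set controls, a ratio of 1380 with a counting interval of 247 to 54400. Malat1, an abundant nuclear RNA, was higher too, with 715 and 1215 CPM in the Zeb2os-set controls, against 129 and 133 CPM in the Zeb2-set controls.

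The 15 largest lower calls opened with 4 genes of the Y chromosome, Uty, Ddx3y, Kdm5d and Eif2s3y. Ddx3y, an RNA helicase, had 0.508 and 0.0226 CPM in the Zeb2os-set controls, against 84.3 and 91.5 CPM in the Zeb2-set controls. Eif2s3y, a translation initiation factor, had 0.366 and 0.0396 CPM in the Zeb2os-set controls, against 36.3 and 40.8 CPM in the Zeb2-set controls. Kdm5d, a histone demethylase, had 0.0946 and 0.0905 CPM in the Zeb2os-set controls, against 22.6 and 18.5 CPM in the Zeb2-set controls. All 4 genes were near 0 in both Zeb2os-set controls, all 4 calls held in all 15 alternatives, and the log2 differences ran from -7.72 to -8.76. Their relatives on the X chromosome, Eif2s3x, Ddx3x, Kdm6a and Kdm5c, were present in both sets and not called. Summed Y-linked levels were at most 1.99 CPM in the Zeb2os-set libraries, knockdowns included, and at least 128 CPM in the Zeb2-set libraries. This difference in Y-linked expression went with set and cannot be told apart from protocol or any batch. Xist, the RNA of X inactivation, was listed at 0 in all 8 libraries, so it could not be used as a check, and the labels do not give the sex of the pups. Its neighbour Ftx had 3.16 and 2.87 CPM in the Zeb2os-set controls, against 0.377 and 0.323 CPM in the Zeb2-set controls.

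The other 11 included Lce1h, Grem1, Flt4, Htr2a, Ivl, Amot, Thsd7a, Ereg, Nrk and Lipg. Thsd7a, a membrane protein with thrombospondin repeats, had 8.13 and 14.2 CPM in the Zeb2os-set controls, against 91.0 and 85.8 CPM in the Zeb2-set controls. Amot, a scaffold of the Hippo pathway, had 20.4 and 36.5 CPM in the Zeb2os-set controls, against 253 and 208 CPM in the Zeb2-set controls. Ereg, a ligand of Egfr, had 11.1 and 11.1 CPM in the Zeb2os-set controls, against 57.8 and 116 CPM in the Zeb2-set controls. Lce1h and Ivl belong to the cluster of epidermal cornified envelope genes on chromosome 3. Ivl, or involucrin, had 2.42 and 1.78 CPM in the Zeb2os-set controls, against 20.6 and 18.7 CPM in the Zeb2-set controls. Of these 11, Amot and Thsd7a kept their calls in all 5 fits without 1 library.

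Zeb2 itself differed between the sets of controls. This repressor of epithelial genes had 48.8 and 69.6 CPM in the Zeb2os-set controls, against 155 and 141 CPM in the Zeb2-set controls, with a log2 difference of -1.32 ± 0.28 (SE, edgeR adjusted p = 0.034). The call was lost in every fit without 1 library (edgeR adjusted p = 0.051 to 0.25). Counts assigned to Zeb2os were 5.48 and 3.77 CPM in the Zeb2os-set controls, against 6.32 and 4.27 CPM in the Zeb2-set controls, and did not pass (edgeR adjusted p = 0.79). Zeb2os lies inside Zeb2 on the opposite strand, at 45110707 to 45114087 of chromosome 2, and the strand setting of the counting was not given in the sources used here, so reads of the 2 genes cannot be told apart.

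**Figure D4:**
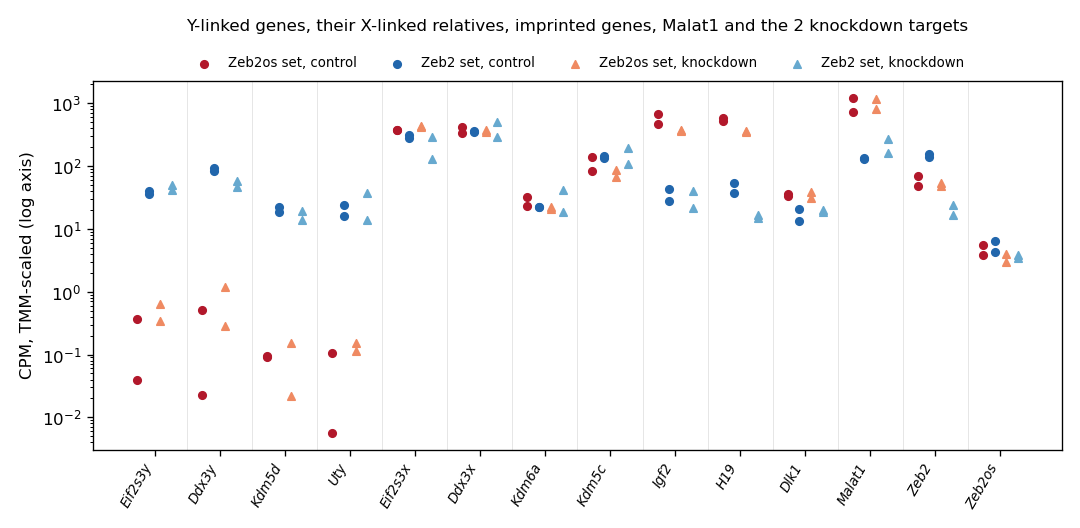
CPM on a log axis for 4 Y-linked genes, 4 X-linked relatives, 3 imprinted genes, Malat1, Zeb2 and Zeb2os, 1 point per library. The Y-linked genes lie near or below 1 CPM in all Zeb2os-set libraries and at 13.9 CPM or more in all Zeb2-set libraries, and Igf2 and H19 lie higher in the Zeb2os set (471 and 682 CPM against 27.9 and 42.7 CPM for Igf2 in the controls).

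The knockdown cultures repeated part of the difference between the sets. The gene knocked down also differed between them, so set and knockdown cannot be told apart in that comparison. Between Zeb2os and Zeb2 knockdowns, 599 genes were higher and 668 lower (2.9% and 3.23% of genes tested). Of the 656 genes higher in the Zeb2os-set controls 299 (45.6%) were also higher in the Zeb2os knockdowns, which is 49.9% of the 599; of the 334 lower ones 90 (26.9%) were also lower, 13.5% of the 668. The difference between the set effect in controls and in knockdowns, tested as an interaction in edgeR, was called for 0 genes, with 1459 at an unadjusted p under 0.05 (7.05%) and a smallest adjusted p of 0.189; no other tool was run on it.

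Of 43 interferon-stimulated genes, 12 were higher and none lower in the Zeb2os knockdowns than in the Zeb2 knockdowns, with a median log2 difference of 1.07. Among all genes tested 2.9% were higher and 3.23% lower in that comparison. In 32 of the 43, all 4 Zeb2os-set libraries lay above all 4 Zeb2-set libraries, against 15.9% of all genes tested. Isg15 had 142 and 106 CPM in the Zeb2os knockdowns, against 10.9 and 11.4 CPM in the Zeb2 knockdowns, without overlap. Rsad2 had 8.04 and 7.32 CPM in the Zeb2os knockdowns, against 13.2 and 3.56 CPM in the Zeb2 knockdowns, so Zeb2 knockdown 1 lay above the other set. That library was also the highest of all 8 in Lcn2 (169 CPM) and C3 (245 CPM).

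Mitosis genes had all 4 Zeb2os-set libraries above all 4 Zeb2-set libraries in 19 of 25 cases and replication genes in 22 of 25, with medians of 1.22 and 1.25 between knockdowns. Calls there were 2 and 3 higher and none lower, beside 2.9% higher and 3.23% lower among all genes tested. Y-linked genes were near 0 in the Zeb2os knockdowns, as in their controls, and all 4 were called lower. Igf2 had 375 and 368 CPM in the Zeb2os knockdowns, against 39.9 and 21.8 CPM in the Zeb2 knockdowns. Astrocyte genes had a median log2 difference of -0.51 between knockdowns. Between controls it was 0.26 and ran from 0.01 to 0.70 over the alternatives. In the knockdowns 8 of 30 were lower in the Zeb2os set and none higher, beside 3.23% and 2.9% of all genes tested. Gfap was among the lower ones (183 and 149 CPM in the Zeb2os knockdowns, against 469 and 361 CPM in the Zeb2 knockdowns). No interaction was called. Thsd7a and Ereg, lower in the Zeb2os-set controls, were not called between knockdowns (log2 difference -0.38 and 0.36).

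**Figure D5:**
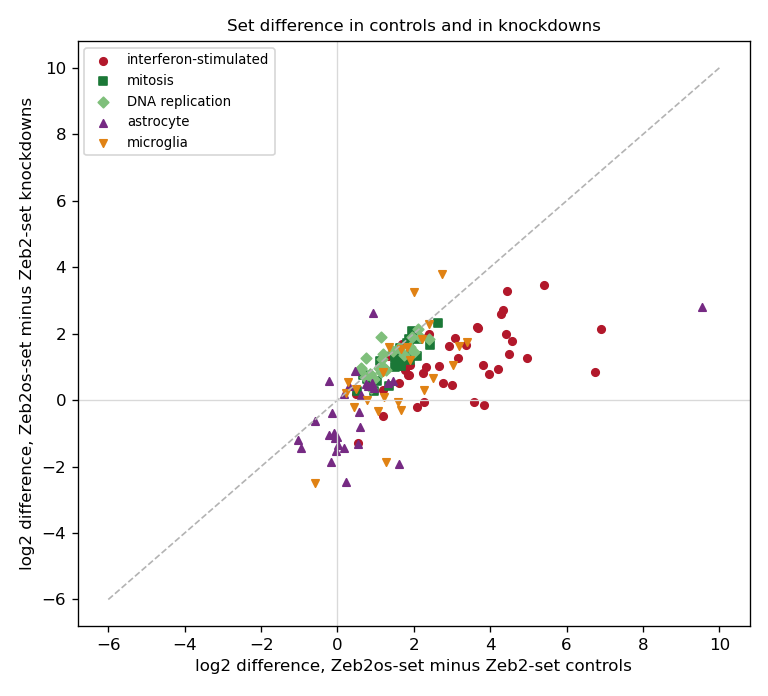
Log2 differences between the sets in controls (horizontal axis) and in knockdowns (vertical axis) for genes of 5 lists, with the line of equal difference dashed. Mitosis and DNA replication genes lie to the right of 0 and close to the line, and most interferon-stimulated genes lie below it (medians 2.93 in controls and 1.07 in knockdowns).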

How the data were processed

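The authors deposited whole-number read counts per gene for 8 culture libraries in 2 tables, not normalised. The submitters' processing notes name build mm10, TopHat2 2.1.0, Cufflinks 2.2.1, FastQC and DESeq2 without saying what each did; for the annotation, the counting program and its strand setting the sources used here give nothing. Per the labels' protocols the library kit marks strand. The tables shared 43693 identifiers; 33 found in the Zeb2 table alone, with 0.00161% of its counts, were not used. Gene positions came from GENCODE (GRCm38), matched for 33340 of 33489 Ensembl identifiers.

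All 8 libraries were fitted with edgeR 4.0.16 (R 4.3.3): filter at a minimum count of 10, trimmed mean of M values, 4 groups, quasi-likelihood test, Benjamini-Hochberg adjustment over all genes tested. The common biological coefficient of variation was 0.376. The steps were tested on simulated data. Intervals and floors cover counting error only. Alternatives were DESeq2 1.42.0, other scaling and filters, gene subsets, length and GC offsets, a 2-fold threshold test, leave-outs and a replicate block. Length and GC content were known for 90.6% of genes tested.

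Named genes were the 15 largest calls in each direction (protein-coding, average log2 CPM of at least 3, controls of the sets not overlapping, same sign without each control), plus list members and the knockdown targets. Members and lists were chosen with earlier results of these data known. Imprinted, X-linked and within-set genes outside the lists were named after their values were seen. Some genes of these lists are not reported here.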

Additional observations from a re-analysis of the deposited data

How the results depend on the processing

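The direction of the interferon, mitosis and replication lists held in all alternatives, but counts of calls did not. Against 656 higher and 334 lower genes between controls, counts were 1610 and 1449 with no filter on low counts, 1112 and 967 with the 4 controls alone, 341 higher with protein-coding genes alone, 365 and 209 among genes without exon overlap, 118 and 19 in a test against 2-fold, 859 lower with GC and length offsets, and 1992 and 1401 with DESeq2. Upper-quartile scaling gave 811 and 254, so that 76.2% of calls were higher, against 66.3%. The median of all genes was 0.22 with that scaling, 0.28 with no filter and -0.13 with the offsets. Leaving out 1 library, higher calls ran from 48 to 385 and lower calls from 9 to 292; without Zeb2os knockdown 1, an alternative chosen after seeing the data, there were 195 and 95. Interferon calls, 35, ran from 11 to 27 in those fits, with 23 among 28 genes without exon overlap and 19 against 2-fold.

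Between knockdowns, against 599 and 668, counts were 1642 and 2405 with no filter, 1942 and 2261 with DESeq2, and 9 to 2670 and 1 to 3597 without 1 library. Replicate numbers were shared between groups, but no label says that they mark a batch, and the differences of replicate 1 and 2 correlated across genes at -0.076 between the sets of controls. With a replicate block 426 and 212 genes were called between controls and 247 and 182 between knockdowns. With 2 libraries a group, the cause of these shifts was not tested. Of the genes named by size and the knockdown targets, 415 values in alternatives stayed on their side of the threshold and 58 called ones lost their call, and no called gene changed sign.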
